A study of Mus musculus with 12 samples.

Results

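The baseline transcriptome of the untreated adult adrenal gland was described from the 3 arrays of the control (CON) pool, out of 12 arrays in the series, and no contrast was made. The mice were C57BL/6J males aged 21 weeks that were fasted overnight before tissue was taken. They drank water without aspartame and had no developmental exposure to CGP 39551, the NMDA receptor antagonist given to other groups of the study. Untreated here means without either agent. The mice of the study had earlier taken part in behavioural tests and were killed with xylazine and ketamine. Equal amounts of adrenal RNA from the CON mice were combined into 1 pool and hybridised to 3 Mouse Gene 1.0 ST arrays, which carry probes along the length of each transcript. The 3 replicates are therefore arrays of 1 pool, and an SD given here covers array error and not the spread between mice. Each gene was taken at its probe set with the highest CON mean among probe sets listed with 1 gene symbol, and 16244 genes were ranked by mean log2 signal.

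The adrenal gland joins 2 endocrine tissues. Cells of the cortex take up cholesterol and turn it into corticosterone and aldosterone under the control of pituitary ACTH and angiotensin II. Chromaffin cells of the medulla make adrenaline and noradrenaline from tyrosine, pack them with granins and neuropeptides into dense-core granules, and release them when preganglionic nerves fire. A capsule, a dense bed of fenestrated capillaries, macrophages and nerve-associated glia surround and divide these cells, and fat lies against the capsule.

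Transcripts of both endocrine tissues stood near the top of the ranking. All 5 genes used to check the label, 2 of the cortex and 3 of the medulla, lay among the 162 genes (0.997% of all genes) with the highest signal. With probe sets naming several genes included, 4 of the 5 stayed in the highest 1%, and Pnmt, at rank 210 of 17326 genes, did not. Star, whose protein moves cholesterol into mitochondria (Entrez 20845), had 13.67, 13.62 and 13.64 on the 3 arrays and ranked 13. Cyp11a1, the enzyme that cuts the cholesterol side chain (Entrez 13070), had 13.57, 13.55 and 13.56 and ranked 18. Chga, the main granin of chromaffin granules (Entrez 12652), had 13.63, 13.58 and 13.59 and ranked 15. The 3 arrays gave nearly the same signal for each of these genes. Dbh, which makes noradrenaline from dopamine (Entrez 13166), had 12.75, 12.80 and 12.75 and ranked 93. Pnmt, which makes adrenaline from noradrenaline (Entrez 18948), had 12.51, 12.53 and 12.50 and ranked 132. The labelled tissue thus carried its cortical and medullary markers. Signals of different probe sets differ in how well their probes bind, so a rank gives the order of array signals and not of molecule numbers.

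The signal scale was read against fixed points. Gene means ran between 4.40 and 14.41 with a median of 8.11, and 14975 of 16244 genes (92.2%) were at or above 6, the minimum used in the methods. The 1624 genes in the highest 10% began at a mean of 10.35. Olfactory receptor genes, which serve smell in the nose, gave a second reference that was added after the values were seen. Their 191 measured genes had a median of 6.02 and a 95th percentile of 7.40, with 0 of 191 in the highest 10%, and 64.7% of all genes lay above that percentile. The highest of them was Olfr767 at 9.31, so a single signal of that size does not by itself show a transcript.

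The 25 highest genes held 5 genes of the cortex lists, 2 of the medulla lists, 3 ribosomal protein genes and 4 small structural RNA genes. Probe sets that name several genes or none were not ranked, and 258 of them had a CON mean above that of the 100th gene. Cyp11b1, which makes corticosterone in the last step of its synthesis (Entrez 110115), was the highest gene of the lists, with 13.92, 13.89 and 13.88. Cyp21a1, the steroid 21-hydroxylase (Entrez 13079), followed with 13.77, 13.75 and 13.71. Scd1, which desaturates fatty acids and ranked 8, had 13.73, 13.69 and 13.70. Genes used by most cells filled many of the other places, among them Actb (beta-actin, 13.84), Fth1 (ferritin heavy chain, 13.69), Eef1a1 (translation elongation, 13.64), Dad1 (protein glycosylation, 13.66) and Serinc3 (a membrane protein, 13.69). Rank 1 belonged to Baiap2l1, an actin-binding adaptor, at 14.41, but that probe set does not list the gene's own RefSeq transcript. The probe set that does had a mean of 8.86, which would put the gene at rank 5550, and Baiap2l1 is therefore not counted as an abundant transcript here.

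**Figure D1:**
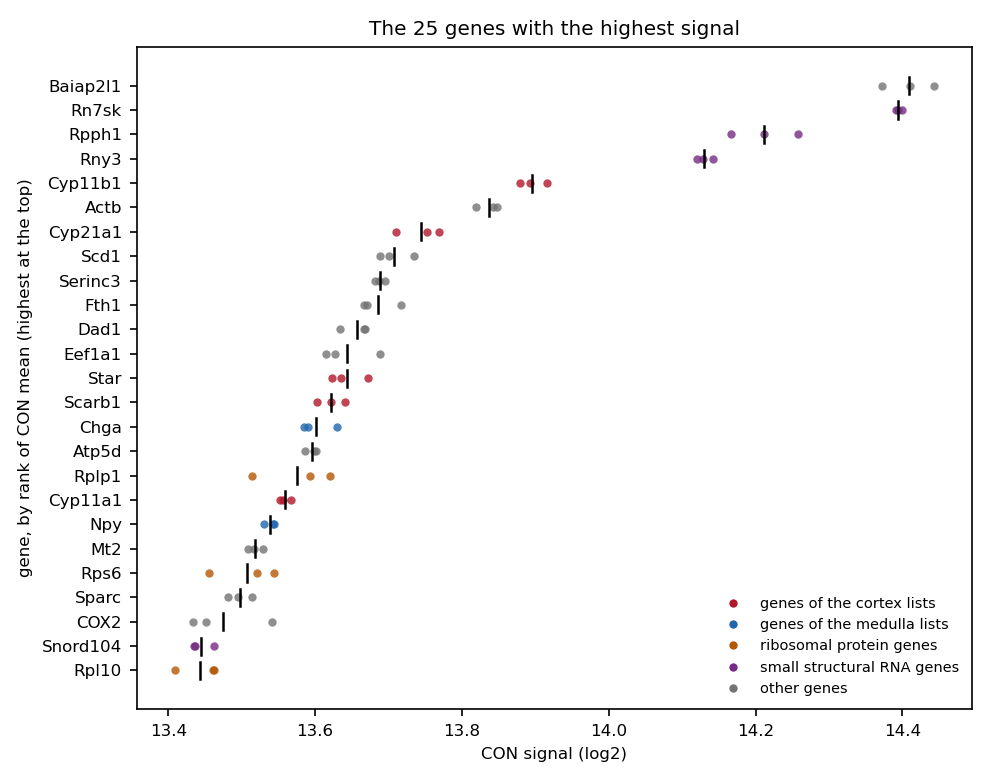
The 25 genes with the highest CON signal, highest at the top, with log2 signal on the horizontal axis, 1 point for each of the 3 arrays and a bar at their mean. Colours mark genes of the cortex lists, genes of the medulla lists, ribosomal protein genes and small structural RNA genes; Cyp11b1 at 13.90 and Cyp21a1 at 13.74 were the highest of the cortex genes and Chga at 13.60 the highest of the medulla.

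Among cortical genes, steroid hormone synthesis stood highest. Of its 24 listed genes 17 were measured, 12 of 17 were in the highest 10% of genes, against 10% over all genes, and the median of their means was 11.91. Besides Star and Cyp11a1, the early mitochondrial steps use the electron carrier Fdx1, which had 12.28, 12.29 and 12.30. Hsd3b1, which turns pregnenolone into progesterone, had 12.40, 12.36 and 12.35, and its relative Hsd3b6 had 11.62, 11.59 and 11.57. Cyp11b2, the aldosterone synthase of the outer zona glomerulosa, had 12.44, 12.44 and 12.52 and ranked 138. Cyp11b1 and Cyp11b2 are near-identical neighbouring genes, and it was not checked whether the probes of one bind transcripts of the other, so the split between them is uncertain. The same holds for Hsd3b1 and Hsd3b6. Cyb5r3 (12.74) and Cyb5a (11.57), which pass electrons to cytochrome enzymes, and Tspo (11.91), an outer mitochondrial membrane protein of steroid-making cells, were also in the highest 10%. At the other end, Cyp17a1, the 17-hydroxylase that adult mouse adrenals are known to lack, had 8.12 ± 0.11 (SD, n = 3 arrays), which is close to the median gene. Hsd11b2, which inactivates corticosterone in the kidney, was the lowest of the list at 6.93 ± 0.14 (SD, n = 3 arrays). Cyp17a1 and Hsd11b2 were thus the lowest of the 17.

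Cholesterol supply was uneven. Of 23 genes measured 8 were in the highest 10%, with a median of 9.84. Scarb1, the receptor that takes cholesterol esters from high-density lipoprotein, had 13.62, 13.64 and 13.60 and ranked 14. Apoe, an apolipoprotein that cortical cells secrete, had 13.24, 13.28 and 13.26. The genes that release stored cholesterol esters were also high, with Nceh1 at 11.87, Lipe (hormone-sensitive lipase) at 11.47 and Lipa (lysosomal acid lipase) at 10.92. The enzymes that build cholesterol anew were spread widely, since Dhcr7, the last step, had 12.46 and Msmo1 10.97, whereas Idi1 had 8.38, Cyp51 8.49 and Mvd 7.84. Stard4, a cholesterol carrier of the cytosol, was the lowest at 7.50.

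Genes of the ACTH pathway differed in signal, with a median of 9.78. Mc2r, the ACTH receptor, had 11.90, 11.94 and 11.90, and its accessory protein Mrap had 12.02, 12.00 and 12.04. The regulatory subunits of protein kinase A, Prkar2b (11.39) and Prkar1a (11.24), the catalytic subunit Prkacb (10.74) and the phosphodiesterase Pde2a (11.24) were the other members in the highest 10%, which made 6 of 15 measured. The adenylyl cyclases Adcy9 (9.88), Adcy6 (9.56) and Adcy3 (9.26), which act between receptor and kinase, lay below the highest 10%. Creb1 had 8.89 and Crem 8.24, and the regulatory subunit Prkar2a was lowest at 8.19. Gnas and Prkaca, the stimulatory G protein and the main catalytic subunit, were listed only on probe sets that name several genes and have no value here.

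Of the cortical transcription factors and zone regulators, 15 of 29 were in the highest 10%, with a median of 10.60. Nr4a1, an orphan nuclear receptor induced by ACTH, had 13.39, 13.41 and 13.38 and ranked 29. Nr5a1 (SF-1), the factor that defines steroid-making cells, had 11.52, 11.53 and 11.51, and Gata6, expressed in the cortex, had 11.57, 11.52 and 11.52. These signals differed little between arrays. Genes known from the zona glomerulosa in the highest 10% included the potassium channels Kcnk3 (12.94, 12.98 and 12.91) and Kcnk9 (12.66), the angiotensin receptor gene Agtr1a (12.42), the adaptor Dab2 (12.53), the calcium sensor Vsnl1 (11.79) and the calcium channel Cacna1h (10.76). Abcb1b, a drug and steroid transporter, had 12.21. Dlk1, a non-canonical Notch ligand found in adrenal cells of both kinds, had 12.99 ± 0.02 (SD, n = 3 arrays). Regulators of the capsule and of progenitor cells differed, with Nr2f2 (COUP-TFII) at 10.60, in the highest 10%, and Wnt4 at 9.58, Shh at 8.82, Rspo3 at 8.45, Gli1 at 7.69 and Wt1 at 7.53. Gata4 (7.65), which acts in the gonads and fetal adrenal, was under the median gene (8.11), as were Gli1 and Wt1. So were Nr0b1 (7.32) and Nr5a2 (6.87), relatives and partners of Nr5a1. In bulk tissue a low signal from a thin layer can come from fewer cells or from less RNA per cell, and these cannot be told apart.

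A chain of 4 enzymes turns tyrosine into adrenaline, and 3 of them stood high in the medulla list. Th, the rate-limiting tyrosine hydroxylase, had 13.37, 13.42 and 13.37 and ranked 30, ahead of Dbh and Pnmt given above. Ddc, the decarboxylase between Th and Dbh, had 9.27, 9.33 and 9.42, below the highest 10%. Cyb561, which carries electrons into the granule for Dbh, had 10.88, 10.94 and 10.93 and completed the 4 of 15 measured members in the highest 10%. The granule transporters lay below the highest 10%, with Slc18a1 (VMAT1) at 10.34, just outside, and Slc18a2 (VMAT2) at 9.27. The enzymes that make the tetrahydrobiopterin cofactor of Th were spread out, with Qdpr at 10.28, Pcbd1 at 10.22, Gch1 at 9.43 and Pts at 7.83. The noradrenaline transporter Slc6a2 had 8.14, and the amine oxidase genes Maob and Maoa had 9.36 and 8.66. The median of the 15 was 9.43.

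Granins and peptides gave 9 of 19 measured genes in the highest 10%, with a median of 10.13. Npy, the neuropeptide that chromaffin cells release with catecholamines, had 13.53, 13.54 and 13.54 and ranked 19. Chgb, the second granin, had 12.55, 12.57 and 12.56. The enzymes and partners of peptide processing followed, with Pcsk1n (proSAAS) at 12.28, Cpe (carboxypeptidase E) at 11.59 and Pam (peptide amidation) at 11.23. Gal (galanin) had 11.53, 11.55 and 11.49, Scg2 (secretogranin II) had 11.08 and Penk (enkephalin precursor) 10.45, 10.54 and 10.51. The peptide genes under 6 numbered 3, namely Tac1 (substance P precursor) at 4.96, Cck (cholecystokinin) at 5.60 and Adcyap1 (PACAP, the transmitter of the nerves that drive chromaffin cells) at 5.95. All 3 lay below the olfactory reference of 7.40.

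The chromaffin regulators had 3 of 18 measured genes in the highest 10%, which were Dlk1, Epas1 (HIF-2alpha, 11.89) and Snap25 (a protein of vesicle fusion, 10.79). The nicotinic receptor subunits that receive the nerve signal, Chrna3 (10.12, 10.14 and 10.22) and Chrnb4 (10.09, 10.20 and 10.07), lay just below it. The sympathoadrenal factors Gata3 (10.05), Gata2 (10.04), Hand2 (9.85) and Phox2a (9.32) were lower. Isl1 and Ret, genes of developing sympathetic neurons, had 7.68 and 7.14. Every measured member of this list was above 6, where 92.2% of all genes were at or above 6. Above the olfactory reference of 7.40 were 17 of 18, against 64.7% of all genes.

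**Figure D2:**
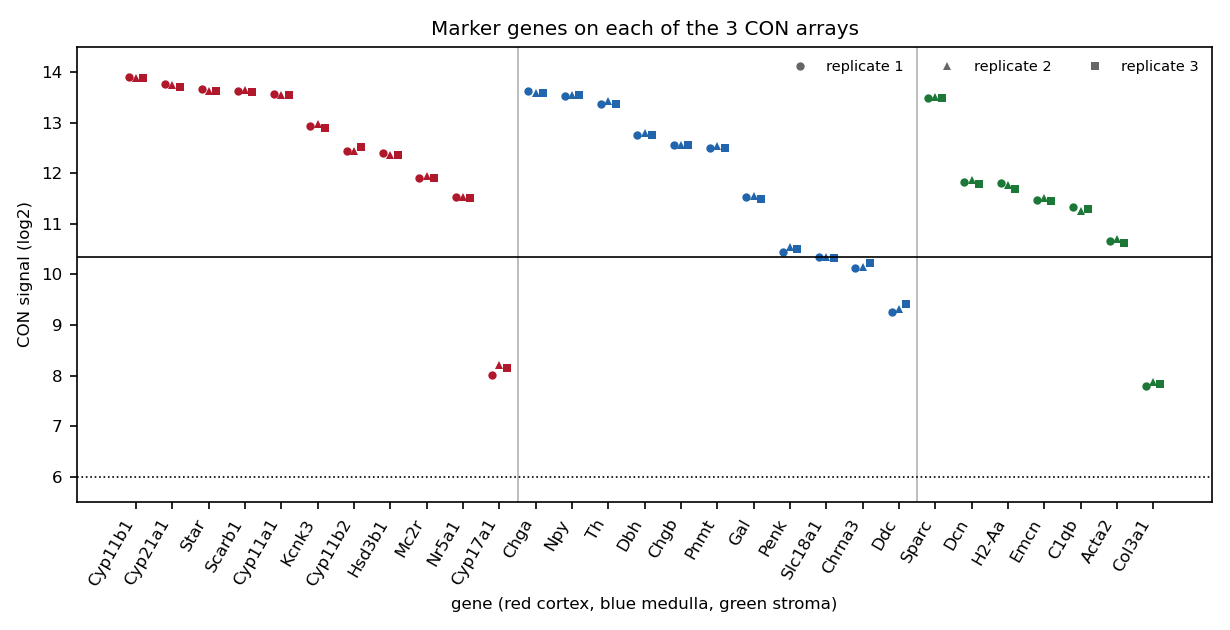
Log2 signal of selected cortex, medulla and stroma genes on each of the 3 CON arrays (circle, triangle and square). The solid line is the edge of the highest 10% at 10.35 and the dotted line is 6; array points of a gene lie close together, and Cyp17a1 at 8.12 is far below the other cortex genes shown.

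Genes of the chromaffin granule are known targets of the cAMP pathway through the cAMP response element, an 8-base palindrome bound by CREB. The window from 250 bases before to 50 bases after the gene start was searched on both strands for TGACGTCA in RefSeq promoters of build GRCm38.p6. Of 12799 ranked genes with a promoter sequence 3.09% held it, and of those in the highest 10% of signal 5.05%. Among the 26 genes of the catecholamine and granin lists with a promoter, 6 held it, and among 7 genes of steroid hormone synthesis 0 held it, which says only that these letters are not in those windows. It was also in 2 of 14 immediate early genes (Btg2 and Dusp1), 3 of 53 respiratory chain genes and 0 of 17 cholesterol supply genes. The 6 are shown with 30 bases on either side, 5′ to 3′ on the strand of the gene, with the match in capitals, because the same motif lies near the start of genes of catecholamine synthesis, storage and peptide processing.
Th: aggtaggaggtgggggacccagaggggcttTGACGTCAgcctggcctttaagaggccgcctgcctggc
Slc18a2: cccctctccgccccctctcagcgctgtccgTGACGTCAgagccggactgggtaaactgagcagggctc
Chgb: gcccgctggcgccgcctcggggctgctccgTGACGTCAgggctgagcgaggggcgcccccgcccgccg
Scg2: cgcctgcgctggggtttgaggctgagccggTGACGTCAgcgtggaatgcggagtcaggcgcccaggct
Pcsk1: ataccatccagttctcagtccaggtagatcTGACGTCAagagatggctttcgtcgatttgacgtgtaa
Cartpt: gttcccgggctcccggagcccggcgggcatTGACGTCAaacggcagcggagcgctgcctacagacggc
The Th stretch lies on the minus strand at chr7:142900003-142900070, and its match begins 45 bases before the gene start. The Slc18a2 stretch is on the plus strand at chr19:59260844-59260911, with a match that begins 4 bases before the start and runs across it. The Chgb stretch (plus strand, chr2:132781540-132781607) and the Scg2 stretch (minus strand, chr1:79440057-79440124) hold it 72 and 68 bases before their starts. The Pcsk1 stretch (plus strand, chr13:75089749-75089816) has it 78 bases before, and the Cartpt stretch (minus strand, chr13:99900758-99900825) 112 bases before. A match is a description of sequence and not a bound site, and the signals of these genes ran between 8.48 for Cartpt and 13.39 for Th.
The other motifs were searched in the same windows. The half-site of SF-1, AAGGTCA, was in 4.22% of all promoters in 1 of 7 of the steroid synthesis genes (H6pd), in 2 of 17 of the cholesterol supply genes (Dhcr7 and Hmgcs1), in 2 of 10 of the catecholamine genes (Ddc and Pts) and in 0 of 16 of the granin and peptide genes. TATAAA was in 10.4% of all promoters, and the GC box CCGCCC in 61.2% of all promoters and 71.1% of those in the highest 10%. Promoters of Star, Cyp11b1 and Pnmt were not analysed here.

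Stromal cells were represented by vessels, matrix and macrophages. Endothelial genes had 5 of 19 members in the highest 10% and a median of 9.70. Emcn (endomucin) had 11.48, 11.52 and 11.46, the TGF-beta co-receptor Eng 11.43, and Plvap, which forms the diaphragms of fenestrated capillaries, 10.97, 11.02 and 10.99. Receptors for VEGF followed, with Flt1 at 10.42 and Kdr at 10.11. Vwf (7.94) and Sox17 (7.65), which mark larger vessels and arteries, were near the bottom with Esm1 at 7.52. All 19 endothelial genes were above 7.40, against 64.7% of all genes.

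Matrix and capsule genes had 8 of 28 members in the highest 10%, with a median of 9.63. Sparc, a collagen-binding matrix protein, had 13.49, 13.51 and 13.48 and ranked 22, and Timp3, an inhibitor of matrix proteases, had 12.80, 12.85 and 12.82. The proteoglycans Bgn (12.26) and Dcn (11.83) were also high. Fibrillar collagens were much lower, with Col3a1 at 7.83 and Col5a2 at 6.73, and Col1a1 had 9.17, 9.35 and 9.23. Of the pericyte and smooth muscle genes 1 of 11 was in the highest 10%, namely Acta2 (smooth muscle actin) with 10.66, 10.70 and 10.62. Pdgfrb, the pericyte receptor, had 10.35, at the edge itself, and Cnn1, a marker of contractile muscle, had 6.76.

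Macrophage and antigen-presentation genes had 10 of 20 members in the highest 10%, with a median of 10.33. The class II genes H2-Aa (11.80, 11.77 and 11.70), H2-Ab1 (11.50) and H2-Eb1 (11.06), their invariant chain Cd74 (11.75), lysozyme Lyz2 (11.52) and the complement gene C1qb (11.34, 11.25 and 11.29) led. Surface markers Adgre1 (7.97), Mrc1 (7.42), Ptprc (7.13) and Cd163 (6.56) were at the low end of the same list. Lymphocyte genes were low, with Cd3e at 7.50, Cd79b at 7.05, Cd8a at 6.39 and Cd4 at 6.36, and 0 of 4 measured in the highest 10%. Schwann and sustentacular cell genes had 1 of 9, Pmp22, a myelin protein also made by other cells, at 12.18. The glial factor Sox10 had 7.53 and S100b 6.05, with a list median of 7.72.

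Most mitochondrial and redox genes measured were in the highest 10%. Of the nuclear respiratory chain subunits 48 of 64 measured were in the highest 10%, against 10% of all genes, with a median of 11.19 and none under 7.87. Atp5d, a subunit of ATP synthase, had 13.59, 13.60 and 13.60 and ranked 16. Cox6c (13.22) of cytochrome oxidase, Atp5g2 (13.21) and Atp5b (12.88) of ATP synthase and Ndufc2 (12.81) of complex I came next, while Ndufb10 (8.21) and Ndufa5 (7.87) of complex I were lowest. Gene families with pseudogene copies such as these can share probes, so the level of a single subunit is uncertain. Of the mitochondrially encoded genes 2 were measured here, COX2 (13.47) and ND3 (12.62). The RefSeq table lists no transcript accession for either, so the check made for Baiap2l1 could not be made for them.

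Citrate cycle and fatty acid oxidation genes had 17 of 29 in the highest 10%, with a median of 10.73. Idh3g (12.60) and Mdh2 (12.56) of the citrate cycle, Hadh (12.54, 12.61 and 12.51) and Acaa2 (12.22) of beta-oxidation and Cpt1a (11.79), which admits fatty acids to mitochondria, were among them. Pdhb, a subunit of pyruvate dehydrogenase, was the lowest at 8.48. Mitochondrial import and proteostasis had 12 of 17, led by the phosphate carrier Slc25a3 (12.87), the chaperonin Hspe1 (12.09) and the ADP/ATP carrier Slc25a5 (11.99).

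Steroid hydroxylation uses NADPH, and its sources differed in signal. Me1, the cytosolic malic enzyme, had 12.77, 12.75 and 12.73, and Idh1, the cytosolic isocitrate dehydrogenase, had 11.83, 11.76 and 11.71. Pgd of the pentose phosphate pathway had 10.23, Me2 8.27 and Me3 6.69. Nnt, the mitochondrial transhydrogenase, of which C57BL/6J mice are known to carry a deletion, had 9.53, 9.68 and 9.69; whether its probes lie outside the deleted part was not checked. In glycolysis Aldoa (13.32) and Pgam1 (12.05) were high and Hk2 was at 7.90. Hk1 was listed at 12.53, but the probe set with its own RefSeq transcript had 8.53. Of the glycolysis and NADPH list 9 of 21 were in the highest 10%, Hk1 included.

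Redox genes had 20 of 28 members in the highest 10%, with a median of 11.55. The metallothioneins Mt2 (13.51, 13.52 and 13.53) and Mt1 (12.86) and thioredoxin Txn1 (13.42, 13.48 and 13.41) were highest, followed by Sqstm1 (12.76), a selective autophagy receptor, and Sod1 (12.56), which removes superoxide. Prdx2 (12.49), the catalase gene Cat (12.46) and Gstm1 (12.44) act on peroxides and electrophiles. The reductases Gsr (8.93) and Txnrd1 (8.92) and glutaredoxin Glrx (8.59) were the lowest of the list.

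A list of fatty acid synthesis, desaturation and lipid droplet genes was chosen after values were seen, and 18 of 29 of its genes were in the highest 10%. Besides Scd1, the desaturases Fads2 (13.44, 13.43 and 13.40) and Fads1 (12.77), Tecr (13.02) of fatty acid elongation, Scd2 (12.72), Acly (12.40), which supplies acetyl-CoA, and fatty acid synthase Fasn (12.10) stood high. The 18 also held genes of fat storage and breakdown, among them the lipase Pnpla2 (12.05) and the droplet protein Plin2 (11.66). Elovl7 (7.90) and Hacd1 (8.15) were lowest. A list of imprinted genes, chosen in the same way, had 5 of 21 in the highest 10%. Peg10 had 13.09, 13.14 and 13.12, and Meg3, the long non-coding RNA beside Dlk1, had 12.62, 12.73 and 12.67. Nnat (11.43) and Ndn (10.82) were the other members beside Dlk1, while Igf2 had 9.14.

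**Figure D3:**
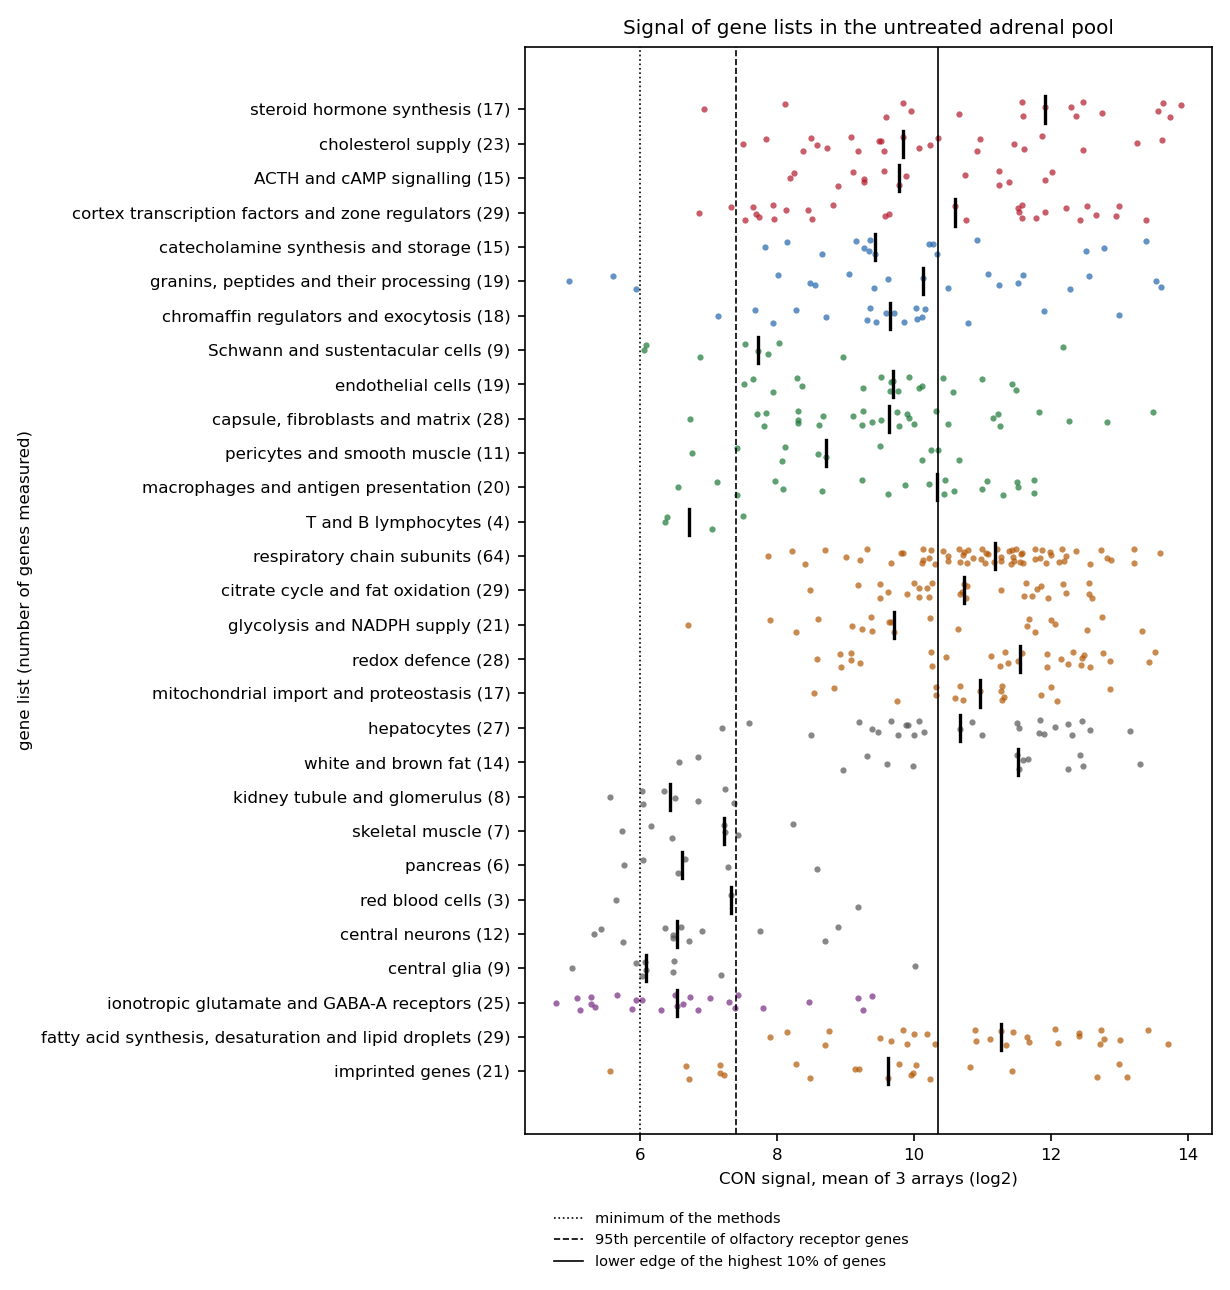
CON mean log2 signal of every measured gene of the lists shown, 1 point per gene, with the list median as a black bar and the number of genes measured in parentheses. Vertical lines mark 6, the olfactory 95th percentile of 7.40 and the edge of the highest 10% at 10.35. Medians to the right of the last line include those of redox, respiratory chain and steroid synthesis genes. They also include those of fat (11.52) and hepatocyte (10.67) genes. The medians of kidney, brain and glutamate or GABA-A receptor genes lie left of 7.40.

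Genes known from liver and fat were also high in the CON pool. Of the hepatocyte list 14 of 27 measured genes were in the highest 10%, with a median of 10.67. All were at or above 6, as were 92.2% of all genes. Alb (albumin) had 13.15, 13.18 and 13.12 and ranked 48, Cyp2e1 had 12.53, 12.58 and 12.60, and Rbp4 had 12.44, 12.48 and 12.46. The plasma protein genes Apoa1 (12.30), Apoa2 (12.25), Trf (12.05), Ahsg (11.90), Apoc3 (11.84) and Ttr (11.82) followed, while Tdo2 (8.50), Fga (7.60) and Cyp7a1 (7.20), which starts the conversion of cholesterol to bile acids, were lowest. Of the fat list 8 of 14 were in the highest 10%, with Car3 (carbonic anhydrase 3) at 13.28, 13.33 and 13.28, Retn (resistin) at 12.47, Fabp4 at 12.43, Cidec at 12.26, Ucp1, the uncoupling protein of brown fat, at 11.67 and Adipoq (adiponectin) at 11.53. Lep (leptin) had 6.59, 7.03 and 6.91 and Dio2 6.57. Part of these genes, among them Rbp4, Trf and Fabp4, are made by several tissues. The part of liver or fat tissue in these signals was not tested. The same holds for the lipid, cholesterol, mitochondrial, fatty acid oxidation and redox lists above.

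Markers of kidney, muscle, pancreas and brain had no member in the highest 10%, and the red blood cell count depended on the probe sets used. In the kidney list 0 of 8 genes were in the highest 10% and 0 of 8 were above 7.40, against 64.7% of all genes. Slc5a2, the tubular glucose transporter, was highest at 7.37, and Umod, a urinary protein, had 6.03. Skeletal muscle had 0 of 7 in the highest 10% (Acta1 highest at 8.24), pancreas 0 of 6 (Cela1 highest at 8.58, insulin gene Ins2 at 6.66) and red blood cells 0 of 3 (Alas2, of haem synthesis, highest at 9.19). The globin genes Hba-a1, Hbb-b1 and Hbb-bt were on probe sets naming several genes, and with such probe sets included 3 red blood cell genes were in the highest 10% in place of 0, so the low count of this list rests on leaving them out. Central neuron genes had 0 of 12, with Syn1 (8.89) and Gad1 (8.70) highest and Slc17a6 (5.43) and Calb2 (5.33) lowest. Central glia had 0 of 9, with Aldh1l1, which liver also makes, highest at 10.01 and Gfap at 6.49. Cell cycle genes had 0 of 9, with Mki67 at 5.53 and Birc5 at 5.90.

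CGP 39551 acts on NMDA receptors, and the list of ionotropic glutamate and GABA-A receptor genes was at the low end in the untreated gland. Of 25 measured genes 0 were in the highest 10%, with a median of 6.54. Under 6 were 9 of them, where 92.2% of all genes were at or above 6. Above 7.40 were 6 of them, against 64.7% of all genes. The highest were Grik5, a kainate receptor subunit (9.34, 9.38 and 9.45), Gabra3 of the GABA-A receptor (9.23, 9.30 and 9.23) and Gria3 of the AMPA receptor (9.15, 9.20 and 9.20). Of the NMDA receptor subunits, Grin2c had 8.41, 8.50 and 8.49, Grin3a 6.73, Grin3b 6.62, Grin2d 6.54, Grin2a 6.02 and Grin2b 5.95. Only Grin2c of these was above the olfactory reference. Gabrg1 was lowest at 4.78.

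Genes that respond to stimuli, steroids and the time of day were mixed. Immediate early genes had 9 of 18 in the highest 10%, with Dusp1 (11.81, 11.88 and 11.89), Nr4a2 (11.58) and Egr1 (11.49, 11.54 and 11.50) after Nr4a1, while Fos had 9.23 and Egr2 and Ier2 8.25. Circadian clock genes had 2 of 12, Nr1d1 (12.08, 12.13 and 12.14) and Per1 (10.87, 10.90 and 10.82), with Cry1 lowest at 7.52. The list of glucocorticoid receptors and their targets had 4 of 10, namely the metallothioneins, Per1 and Zbtb16 (10.78). The receptors Nr3c1 and Nr3c2, members of the same list, had 7.94 and 7.39. The Y-linked genes Eif2s3y (8.98), Uty (8.01) and Kdm5d (7.89) were all above 7.40, as were 64.7% of all genes, in mice labelled as male. Uty and Kdm5d were under the median gene (8.11), and Xist and Ddx3y were not analysed here. The values therefore check the sex label only weakly.

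The 3 arrays agreed closely. They correlated across probe sets at 0.994 to 0.995, and their medians were 7.89, 7.92 and 7.92. The median SD of a gene was 0.0638 and the 95th percentile 0.163. The spread fell as signal rose, with a median SD of 0.0909 among genes under 6 and 0.0251 among genes at 13 or more. A range over 0.5 between arrays was found in 67 genes, 64 of them with a mean under 8. Among the 100 highest genes the widest range was 0.168 (B2m). Neighbours in the ranking such as Star (13.64), Scarb1 (13.62) and Chga (13.60) overlapped between arrays, and no order is read from them. A choice of probe set mattered more than the array: in 840 genes with several probe sets the median gap between the highest and the lowest was 0.697, and it reached 6.49 in Cycs (cytochrome c).

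**Figure D4:**
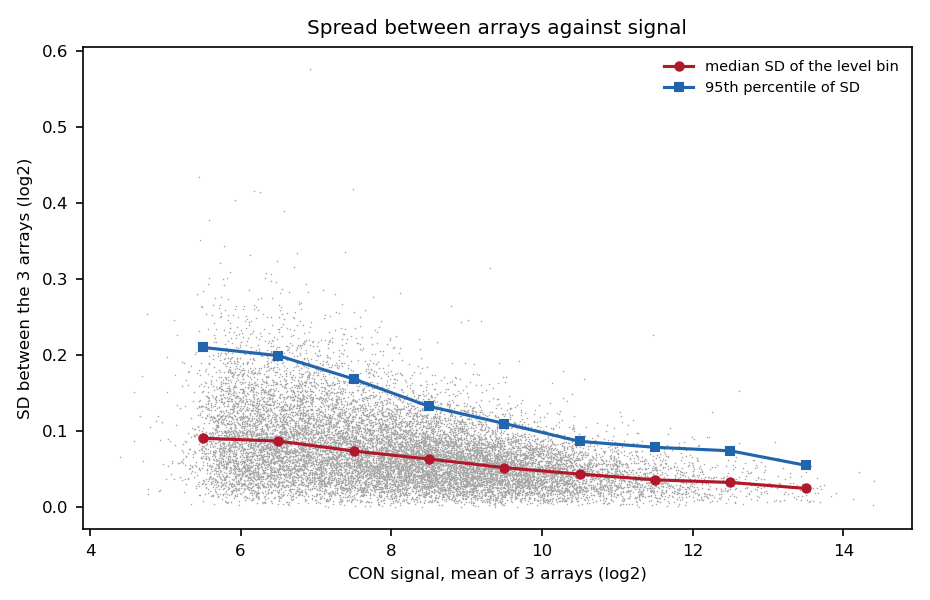
SD between the 3 CON arrays against mean log2 signal, 1 grey point per gene, with the median (circles) and the 95th percentile (squares) of the SD in bins of signal. The median SD falls to 0.0251 in the highest bin, against 0.0909 in the lowest.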

How the data were processed

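Values deposited by the authors are on the log2 scale, 1 for each probe set and array, after RMA in Partek, which corrects background, normalises quantiles over all 12 arrays and summarises probes; the labels name no version of either. CON values therefore depend in part on the arrays of the other groups. All 26533 probe sets were read, of which 17710 name 1 gene in the platform annotation, 1077 several and 7746 none. Genes were ranked by the mean over the 3 CON arrays, which are hybridisations of 1 RNA pool, so that no p-value was computed and nothing was tested. The number of arrays limits the precision, since arrays have no read depth.

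The members and the 35 gene lists were chosen with earlier results of these data known, and 2 further lists were chosen after the values were seen. Named genes are the 25 highest, up to 10 of the highest and 4 of the lowest members of each list, and the markers. Predicted and small RNA genes were counted only. Nr5a1, Gata6, Nr2f2, Plin2, Wnt4, Shh, Rspo3, Gli1, Phox2a, Col1a1, Nnt, Igf2, Slc18a2, Pcsk1, Cartpt, other NMDA receptor subunits and some low or middle members named beside them were added after their values were seen. Of 643 list genes 556 were measured, and the rest were not analysed here or shared a probe set. The ranking step was run on simulated arrays in which planted genes lay above every real gene. That run checks the code alone, since it cannot show how reliable close ranks or the choice of probe set are. Python 3.11.15, pandas 2.3.3, numpy 2.4.6 and matplotlib 3.10.9 were used. Alternatives covered the choice of probe set, probe sets naming several genes, array scaling, averaging, a minimum of 6 and leaving out each array.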

Additional observations from a re-analysis of the deposited data

How the results depend on the processing

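No paired analysis was possible because only the CON group was used and no test was made. Of 629 counts of list members recomputed under alternatives, 624 stayed within 1.5 times the reported count. With the mean over a gene's probe sets, pericyte and smooth muscle genes in the highest 10% numbered 2 in place of 1; leaving out 1 array in turn gave 1 to 2, and 2 without CON replicate 2. With probe sets naming several genes included, mitochondrially encoded genes at or above 6 numbered 4 in place of 2, red blood cell genes in the highest 10% 3 in place of 0 and at or above 6 5 in place of 2, and 56 of the 100 highest genes stayed among the 100 highest. Under the mean over probe sets 94 stayed, and under every other alternative 99 or 100. Under these alternatives Star ranked between 12 and 29, Cyp11a1 between 16 and 40, Chga between 14 and 37, Dbh between 85 and 164 and Pnmt between 122 and 210. Pnmt left the highest 1% in 1 of these, with probe sets naming several genes included. Requiring a probe set with the gene's own RefSeq transcript, an alternative chosen after seeing the data, put Baiap2l1 at 8.86. The SD covers arrays of 1 pool, so no value here gives the spread between mice.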
